A study of Mus musculus with 6 samples.

Results

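The 6 colon libraries of this study were split by the read count of Hoxb13, a homeobox gene of the most posterior Hox group. The sides were chosen by this measured count and by nothing else. Libraries with more than 5000 Hoxb13 counts formed the high-Hoxb13 side and libraries with fewer than 2000 formed the low-Hoxb13 side, which placed all 6 libraries, 3 on each side. The high-Hoxb13 side held NSD2fl/fl replicates 1 and 3 and NSD2∆IE replicate 1. The low-Hoxb13 side held NSD2fl/fl replicate 2 and NSD2∆IE replicates 2 and 3. Values of single libraries are given below in that order, the 3 high-Hoxb13 libraries first. NSD2∆IE mice carried the floxed Nsd2 gene and Villin-Cre, which is active along the intestinal epithelium, so that other cells of the colon kept the gene. NSD2fl/fl mice carried the floxed gene and served as controls. NSD2 is a methyltransferase for lysine 36 of histone H3. All mice had the C57BL/6J background. Per the labels, every group was fed HFCD, a diet rich in fat and cholesterol, during 16 weeks, whereas the study's text gives a longer time. The study's methods describe male littermates and give no colon segment for the RNA. Summed over Ddx3y, Eif2s3y, Kdm5d and Uty, which lie on the Y chromosome, the NSD2fl/fl libraries had 5058 to 6110 counts and the NSD2∆IE libraries 0 to 1, whereas Xist, which is transcribed from the inactive X chromosome, had 0 to 4 counts in the former and 21217 to 24234 in the latter. This pattern and genotype cannot be told apart, but each side of the Hoxb13 split held libraries of both genotypes.

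Hox genes lie in 4 clusters and are switched on in an order that follows their position along the chromosome, so that genes at the 5′ end of a cluster mark the hind end of the body. In the large intestine, group 13 genes are known to mark the distal colon and rectum. The proximal and distal colon also differ in their work: the proximal part ferments fibre, and the distal part takes up sodium and water and lays down a dense mucus layer.

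Library totals lay between 38041832 and 38604680 counts, between 20334 and 21312 genes had a read, and the 10 most abundant genes took 7.46% to 11.8% of the counts. Levels are given as CPM, counts scaled to the library total and its TMM normalization factor. A count of 0 allows up to 3 counts, counting error only, which equalled 0.0777 to 0.0789 CPM in these libraries before the TMM factor. Markers of the labelled tissue were present on both sides: Epcam, an epithelial adhesion molecule, had 1431, 1459 and 1388 CPM in the high-Hoxb13 libraries and 1874, 1344 and 1233 CPM in the low-Hoxb13 libraries. Nothing in the labels states whether a library is 1 animal.

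Hoxb13 had 14052, 12125 and 12288 counts in the high-Hoxb13 libraries and 25, 197 and 1086 counts in the low-Hoxb13 libraries. The lowest library above the threshold thus had 12125 counts and the highest below it 1086, in NSD2∆IE replicate 3. Since these counts chose the sides, the Hox genes are described with no test. Hoxd13, also of group 13, had 937, 1379 and 455 counts on the high side and 0, 0 and 7 on the low side. Hoxb6, from the middle of its cluster, ran the other way with 55, 39 and 83 counts against 2461, 1717 and 1105. Hoxb8 had 2, 4 and 21 counts against 860, 930 and 567. Within the HoxB cluster the direction differed between genes. Hoxb3 to Hoxb8 were lower in every high-Hoxb13 library than in every low-Hoxb13 library. Hoxb9, the next gene in the cluster, was lower by 0.73 on the log2 scale, and Hoxb13 was higher. At the other end, Hoxb2 had 85, 64 and 92 counts against 80, 210 and 206, so that its sides overlapped. Group 13 of the HoxA cluster differed less: Hoxa13 had 18, 14.4 and 18.3 CPM on the high side and 3.76, 5.68 and 13 CPM on the low side, and the neighbouring noncoding RNA Hottip 42.4, 35.7 and 45.3 CPM against 2.2, 6.31 and 18.1 CPM. Of 46 Hox cluster genes measured, 35 passed the filter on low counts, and 5 were higher and 11 lower on the high side by the criterion given below. They are left out of all further counts.

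**Figure D1:**
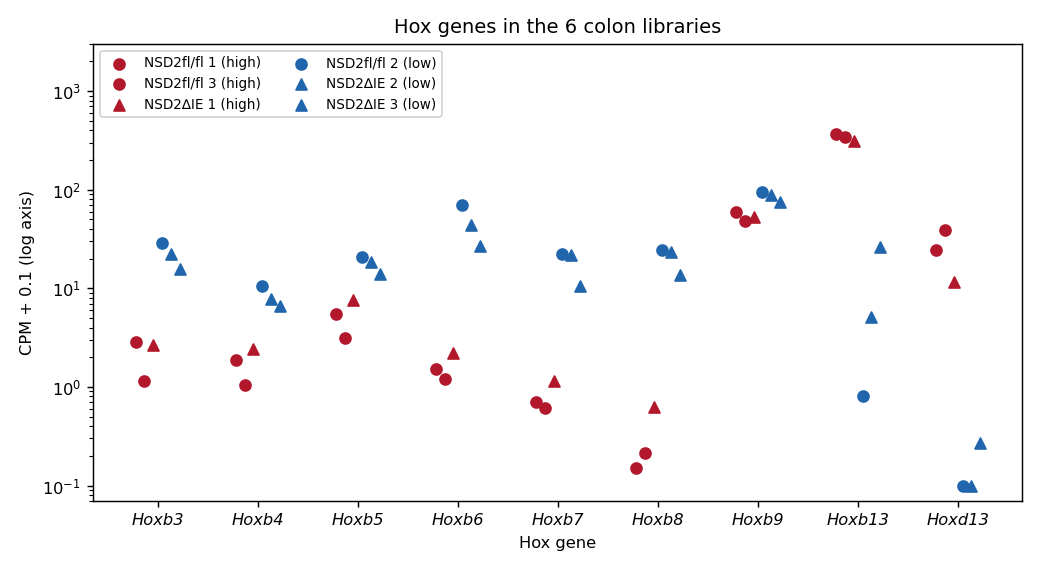
CPM plus 0.1 on a log axis for 8 HoxB genes and for Hoxd13 in the 6 libraries. Each point is 1 library, red for high and blue for low Hoxb13, circles for NSD2fl/fl and triangles for NSD2∆IE. Hoxb3 to Hoxb9 lie lower and Hoxb13 and Hoxd13 higher in the high-Hoxb13 libraries, and NSD2∆IE replicate 3 has the highest Hoxb13 level on the low side, 26.2 CPM.

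Across the remaining transcriptome, 1059 of 16312 genes tested separated the sides, that is, all 3 high-Hoxb13 libraries lay on one side of all 3 low-Hoxb13 libraries and the difference was over 2-fold (6.49% of the genes). They comprised 509 genes with higher levels in the high-Hoxb13 libraries (3.12%) and 550 with lower levels (3.37%). The difference, here called the side difference, is on the log2 CPM scale, high minus low, with genotype in the model. It equals the mean of the difference within NSD2fl/fl and the difference within NSD2∆IE. The median side difference over all genes tested was 0.02. Among the separating genes, the median size was 1.80 for the higher genes and 1.63 for the lower genes, and 223 of the former and 190 of the latter differed by more than 2 on the log2 scale. Without the size criterion, the sides did not overlap for 3642 genes (22.3%), of which 2093 were higher (12.8%) and 1549 lower (9.5%) in the high-Hoxb13 libraries. Hoxb13 came from the same libraries as these genes, so the counts describe the split and are no test of it. The low-count filter bears on them too: 178 of the 1059 genes (16.8%) reached the filter's level in libraries of 1 side only and so had to differ to be tested at all. As the tissue was sequenced in bulk, fewer cells of a type and less RNA per cell cannot be told apart.

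The split could be viewed within each genotype, since the NSD2fl/fl contrast (replicates 1 and 3 against 2) and the NSD2∆IE contrast (replicate 1 against 2 and 3) share no library. Over the 16312 genes, the side differences of the 2 genotypes had a Pearson correlation of 0.654 and a Spearman correlation of 0.385. These correlations are across genes, which are not independent replicates. In NSD2fl/fl 1343 genes were higher by more than 1 on the log2 scale in the high-Hoxb13 libraries and in NSD2∆IE 608, with 418 genes in both, which is 31.1% of the first list and 68.8% of the second. Lower by more than 1 were 951 and 755 genes, with 403 in both, 42.4% of the first and 53.4% of the second. Opposite directions at that size were seen for 56 genes. At a difference of over 3, the contrasts shared 63 higher and 44 lower genes and no gene had opposite directions.

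**Figure D2:**
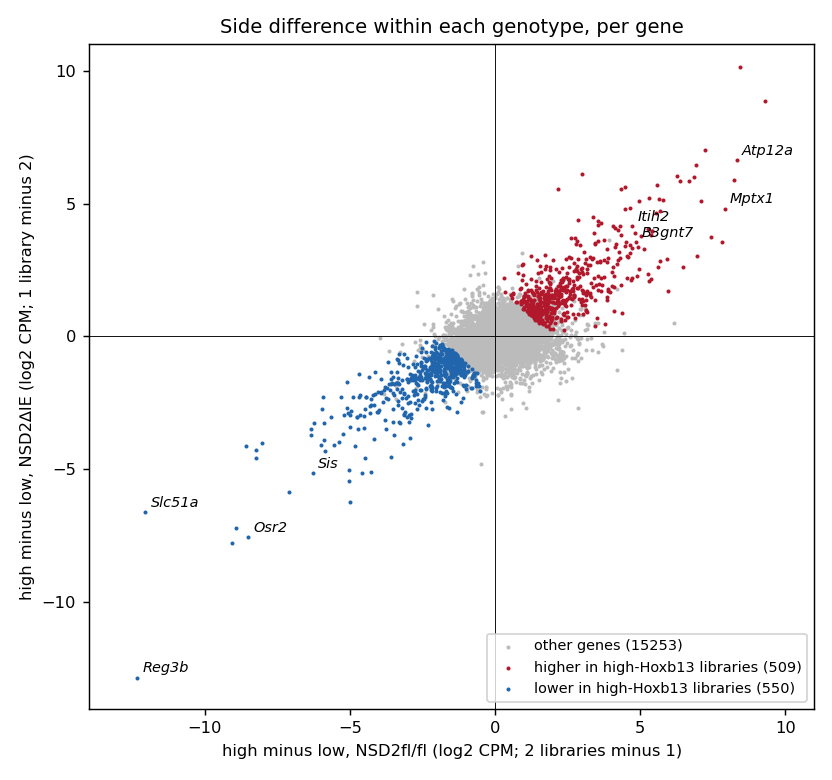
Side difference (high minus low, log2 CPM) of 16312 genes within NSD2fl/fl on the x axis and within NSD2∆IE on the y axis. Each point is a gene, red for the 509 and blue for the 550 genes that separate the sides, grey for the others. The genes with the largest differences lie at the lower left and the upper right, among them Reg3b and Slc51a below and Atp12a and Mptx1 above.

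The genes with the largest differences in both genotypes included transporters, enzymes and secreted proteins of the colon surface. Atp12a (chromosome 14), the colonic proton-potassium pump that takes up potassium, had 372, 637 and 737 CPM in the high-Hoxb13 libraries and 1.47, 4.62 and 12 CPM in the low-Hoxb13 libraries, a side difference of 7.47 (residual SD 0.86). Tgm3, a transglutaminase that cross-links proteins, had 1129.5, 592 and 1416 CPM against 2.66, 11.2 and 51.3 CPM. Slc37a2, a sugar-phosphate exchanger, had 293, 57.9 and 169 CPM against 2.68, 2.73 and 3.83 CPM. All of these stood over 10 times higher in every high-Hoxb13 library than in every low-Hoxb13 library. Mptx1, a mucosal pentraxin, was among the most abundant transcripts of the high side, with 1.51%, 2.63% and 1.53% of all counts, against 0.0079%, 0.0113% and 0.279% on the low side. Its side difference was 6.35 with a residual SD of 2.16, and NSD2∆IE replicate 3 lay between the other low libraries and the high side. Reg4, a secreted lectin, had 501, 3651 and 593 CPM against 31.7, 38.5 and 37.6 CPM. B3gnt7, a glycosyltransferase of keratan sulfate chains, had 702, 557 and 555 CPM against 21.6, 26.3 and 86.5 CPM. The remaining leading genes on this side were Cyp2f2, Cyp2d12, Itih2 and Pla2g4f, with side differences between 3.56 and 6.26.

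Among the genes lower in the high-Hoxb13 libraries, the antimicrobial lectin Reg3b (chromosome 6) covered the widest range. It had 3, 443 and 1 counts on the high side and 231689, 46397 and 11238 counts on the low side. Its side difference was -12.58, with a residual SD of 2.83, and the low-Hoxb13 libraries alone spread more than 20-fold. Reg3g, its neighbour on chromosome 6, had 0.571, 9.38 and 0.454 CPM against 1168, 149 and 36.6 CPM. Osr2 (chromosome 15), a transcription factor of the odd-skipped family, was far steadier, with 0.208, 0.309 and 0.202 CPM against 113, 77 and 29.7 CPM and a side difference of -8.04 (residual SD 0.67). Nts, the gene of the gut hormone neurotensin, had 0.0779, 0.112 and 0.0757 CPM against 78, 45.4 and 16.7 CPM. For both genes every library of the high side was near the level of 3 to 11 counts. Nts reached the level of the low-count filter in low-Hoxb13 libraries only, so it had to differ to be tested. Sis, the sucrase-isomaltase of the brush border, had 0.909, 0.0562 and 0.505 CPM against 25.2, 47 and 8.27 CPM. Abca12, a lipid transporter, Prap1, a secreted proline-rich protein, and Ugt2b5, a glucuronosyltransferase, had side differences of -6.41, -6.24 and -5.05. Where the lower side had only a few counts, the size of a fitted difference depends on the prior count and should be read with the counts.

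**Figure D3:**
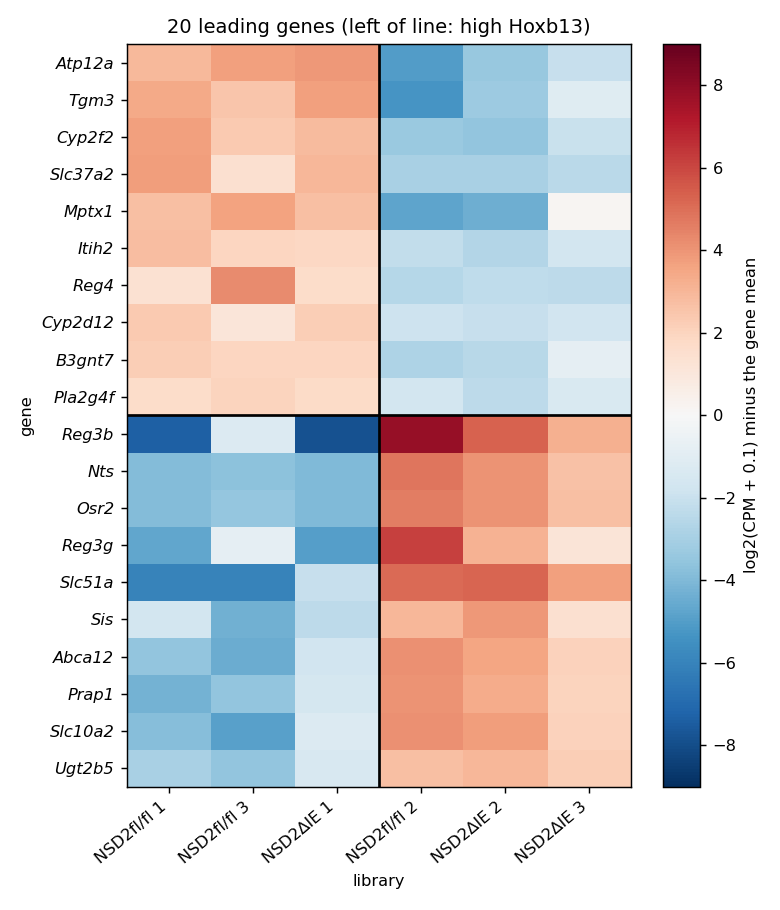
Levels of the 20 leading genes (rows) in the 6 libraries (columns), as log2(CPM + 0.1) minus the mean of the gene over the 6 libraries, red above and blue below that mean. The upper 10 genes are red in the 3 columns left of the line (high Hoxb13) and the lower 10 in the 3 columns right of it, and NSD2∆IE replicate 3, the last column, is the palest of the low-Hoxb13 libraries for most genes.

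Promoter sequences were examined because homeobox proteins of the Hox group 13 and Cdx families are known to bind closely related AT-rich sites, and Cdx2 itself separated the sides. Of the genes tested, 12829 had at least 1 promoter in the RefSeq table (GRCm38.p6), and the 250 bases before each start were searched on both strands. CCAATAAA, a group 13 type site, was found for 9 of 392 genes higher in the high-Hoxb13 libraries (2.3%), 3 of 425 lower genes (0.706%) and 127 of all 12829 (0.99%). GCAATAAA, a Cdx type site that differs in its first letter, was found for 2 of 392 higher genes (0.51%), 12 of 425 lower genes (2.82%) and 85 of all genes (0.663%). Their shared 7 letters, TTTATTG on the reverse strand, were found for 6.89% of the higher genes, 5.18% of the lower genes and 3.2% of all genes. CTCGTAAA, a second group 13 type form, was found for 2 higher genes (0.51%), 1 lower gene (0.235%) and 17 of all genes (0.133%). TTTATG, a short Cdx type form, had nearly the same share in both directions, 14.3% of higher and 14.4% of lower genes, against 8.08% of all genes. CAAAGTCCA, an Hnf4a type site, was found for 1.53% and 1.41% against 0.468%. A match of this kind describes the letters of a promoter and not a bound site. The 4 promoters below are shown as examples of each direction: the 2 higher genes with CCAATAAA and the 2 lower genes with GCAATAAA that had the largest side differences, among genes with 1 promoter in the table and a mean log2 CPM of 1 or more. The sequences run 5′ to 3′ towards the start of transcription, and capitals mark the match or its reverse complement.
Eno3: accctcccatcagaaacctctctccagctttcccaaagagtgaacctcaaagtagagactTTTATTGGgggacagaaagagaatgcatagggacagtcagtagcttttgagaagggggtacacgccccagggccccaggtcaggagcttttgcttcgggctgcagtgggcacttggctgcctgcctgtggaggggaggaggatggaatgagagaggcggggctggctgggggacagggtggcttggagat
Tnip3: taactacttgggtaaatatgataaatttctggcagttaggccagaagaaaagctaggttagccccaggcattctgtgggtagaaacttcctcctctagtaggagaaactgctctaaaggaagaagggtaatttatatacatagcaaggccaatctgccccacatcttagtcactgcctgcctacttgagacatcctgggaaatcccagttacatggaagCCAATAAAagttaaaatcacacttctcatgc
Slc10a2: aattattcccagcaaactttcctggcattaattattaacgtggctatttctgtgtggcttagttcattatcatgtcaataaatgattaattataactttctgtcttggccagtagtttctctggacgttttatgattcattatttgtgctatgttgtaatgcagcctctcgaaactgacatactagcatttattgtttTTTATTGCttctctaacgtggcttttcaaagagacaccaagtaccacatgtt
Sis: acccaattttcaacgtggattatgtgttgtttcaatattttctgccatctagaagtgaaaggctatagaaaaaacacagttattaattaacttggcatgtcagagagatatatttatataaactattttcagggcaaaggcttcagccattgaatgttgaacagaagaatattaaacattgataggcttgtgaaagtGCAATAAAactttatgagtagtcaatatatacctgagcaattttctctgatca

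The Eno3 window is chr11:70656926-70657175 on the + strand, and its match begins 190 bases before the start. Eno3 encodes an enolase of muscle and had 151, 126 and 158 CPM in the high-Hoxb13 libraries and 15.7, 18.6 and 23.4 CPM in the low-Hoxb13 libraries. The Tnip3 window is chr6:65590148-65590397 on the + strand, with the match 31 bases before the start. Tnip3, an inhibitor of NF-kappaB signalling, had 32.7, 86.9 and 29.3 CPM against 13.4, 3.25 and 4.68 CPM. The Slc10a2 window is chr8:5105288-5105537 on the - strand, with the match 52 bases before the start, and the Sis window is chr3:72967864-72968113 on the - strand, with the match 53 bases before the start. Both of these genes belong to the lower set described above and below.

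Gene lists were then described by role. Among 34 tested regional transcription factors, 2 were higher and 6 lower in the high-Hoxb13 libraries, with a median side difference of -0.12. Beside Osr2, the intestinal homeobox gene Isx, which controls uptake of vitamin A precursors, had 6.78, 5.95 and 7.52 CPM against 242, 125 and 73.7 CPM. Cdx2, the caudal homeobox factor that defines intestinal epithelium, had 77.2, 90.1 and 93.3 CPM against 305, 263 and 242 CPM, a side difference of -1.65 with a residual SD of 0.18. Its sister gene Cdx1 had 358, 414 and 357 CPM against 388, 324 and 312 CPM, so that the sides overlapped. Gata4, Gata5 and Tbx3 were also lower, at side differences of -3.49, -2.15 and -1.85, with Gata4 near the detection limit on the high side. Foxa2 was higher, with 38.3, 29.3 and 32.8 CPM against 11.5, 9.61 and 17.9 CPM, as was Osr1, with 3.84, 4.83 and 4.36 CPM against 1.22, 3.23 and 2.15 CPM. Hnf4a, a nuclear receptor expressed throughout the colon epithelium, had a side difference of -0.05 with overlapping sides.

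Bile acid and sterol genes were lower for 5 and higher for 1 of 18 tested members. Slc10a2, the apical transporter that takes bile acids into the cell, had 37, 14 and 251 counts against 9078, 7926 and 2545 counts, a side difference of -6.35 (residual SD 1.71) that was -4.12 without NSD2fl/fl replicate 2. Slc51a, a subunit of the basolateral exporter, had 0, 0 and 55 counts against 7808, 9338 and 3450 counts. Its partner Slc51b had 17.8, 36.4 and 25.3 CPM against 117, 101 and 65.5 CPM. Transcripts of all 3 transporter genes were lower in every high-Hoxb13 library than in every low-Hoxb13 library. Nr1h4, the nuclear receptor for bile acids, had 55, 77.7 and 58.4 CPM against 191, 156 and 91.9 CPM. Abcg5, which exports sterols, was higher, with a side difference of 1.54. Fabp6, the bile acid binding protein of the cytosol, was high in the NSD2∆IE low-Hoxb13 libraries, with 224 and 63.5 CPM. NSD2fl/fl replicate 2 had 3.98 CPM of it, close to the 2.73, 2.98 and 4.29 CPM of the high-Hoxb13 libraries. The median of the list was 0.22 and its mean -1.07, opposite in sign.

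Digestive and absorptive genes leaned to the low-Hoxb13 side. Brush border hydrolases were lower for 6 and higher for 1 of 19 members (median -0.69), and fat absorption genes were lower for 5 and higher for none of 14 (median -0.45). Alpi, the alkaline phosphatase of the brush border, had 2.86, 1.26 and 6.79 CPM against 37.6, 45.5 and 27.3 CPM. Fabp2, which binds fatty acids in enterocytes, had 125, 114 and 257 CPM against 986, 836 and 733 CPM. Mogat2, which rebuilds triglycerides after uptake, had 0.364, 0.365 and 1.08 CPM against 6.81, 5.8 and 3.86 CPM. The hydrolase that ran the other way was Mme, the membrane peptidase neprilysin, with 116, 55 and 194 counts against 2, 12 and 12 counts. Transporters of sugars, peptides and amino acids were mixed, with 3 of 16 higher and 1 lower, a median of -0.05 and a mean of 0.11. Slc15a1, the peptide transporter PEPT1, had 116, 54.1 and 99.8 CPM against 13.6, 10.1 and 15.7 CPM. Slc3a1, a chain of the transporter for cystine, had 9.95, 12.3 and 31.9 CPM against 171, 136 and 67.9 CPM, a side difference of -2.77 that was -1.59 without NSD2fl/fl replicate 2.

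Of 37 xenobiotic genes 16 were lower in the high-Hoxb13 libraries and 3 higher, with a median side difference of -0.83. Cyp2c55, a cytochrome P450 of the colon, had 83.1, 40.9 and 176 CPM against 1456, 2487 and 754 CPM. Cyp2c65 had 8.1, 4.21 and 26.4 CPM against 485, 431 and 204 CPM. Ces1g, a carboxylesterase, had 1.38, 1.15 and 7.14 CPM against 78.4, 103 and 46.5 CPM. A relative of the same P450 subfamily, Cyp2c68, went in the other direction, with 162, 80.5 and 113 CPM against 6.53, 11 and 10.8 CPM. Nr1i3, the nuclear receptor CAR, was also higher, with 160, 46 and 143 counts against 4, 8 and 21, whereas Nr1i2, the receptor PXR, had overlapping sides. Cyp3a44 had no read in the high-Hoxb13 libraries and 479, 87 and 11 counts in the low-Hoxb13 libraries, at least 68-fold higher on average than the level of 3 counts per library, and at least 15.7-fold without NSD2fl/fl replicate 2. Cyp3a44 likewise reached the level of the low-count filter in low-Hoxb13 libraries only. PPAR target genes were lower for 6 and higher for none of 21 (median -0.39). Ppara, the receptor itself, had 26.6, 10.6 and 25.3 CPM against 102, 98 and 52.9 CPM. Cyp2c, Ces1, Ugt2b, Reg3, Mptx and Gsdmc genes belong to families of related gene copies. How reads that fit more than 1 copy were counted is not given in the sources used here, so the split of reads within these families is uncertain.

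Sodium, potassium and water transport genes were higher for 6 and lower for none of 25 tested members (median 0.24). Fxyd4, a regulator of the sodium pump known from aldosterone-responsive epithelia, had 1392, 324 and 2299 counts in the high-Hoxb13 libraries and none in the low-Hoxb13 libraries, at least 439-fold higher on average than the level of 3 counts per library, and at least 288-fold without NSD2∆IE replicate 1. Fxyd4 reached the level of the low-count filter in high-Hoxb13 libraries only, so it had to differ to be tested at all. The epithelial sodium channel differed by subunit. Scnn1g had 566, 192 and 475 counts against 0, 23 and 51, and Scnn1a had 166, 129 and 151 CPM against 65, 70.3 and 85.6 CPM. The sides overlapped for Scnn1b, with 21.7, 5.76 and 14.5 CPM against 13, 5.7 and 6.05 CPM. Of the water channels, Aqp8 had 517, 591 and 624 CPM against 252, 192 and 265 CPM, and Aqp4 had 536, 734 and 462 CPM against 154, 168 and 300.4 CPM. Slc9a3, the sodium-proton exchanger NHE3, had 202, 299 and 376 CPM against 382, 429 and 443 CPM, lower without overlap but by less than 2-fold.

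Chloride and bicarbonate genes were higher for 4 and lower for 5 of 20 members. Car1, a cytosolic carbonic anhydrase, took 0.019%, 0.0295% and 0.0744% of all counts in the high-Hoxb13 libraries and 0.724%, 0.827% and 0.41% in the low-Hoxb13 libraries. Guca2a, the hormone guanylin, had 389.7, 371 and 559.7 CPM against 1592, 1078 and 947 CPM. Slc26a3, the chloride-bicarbonate exchanger of the colon surface, had 639, 587 and 1061 CPM against 298, 319 and 371 CPM. Best2, an anion channel of goblet cells, had 106, 59.6 and 80.2 CPM against 3.98, 7.47 and 14.2 CPM. Side differences in this list ran from -3.97 for Car1 to 3.63 for Best2.

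Goblet cell genes were found on both sides. Of 19 tested members 4 were higher and 1 lower, with a median of 0.24. Clca1, a secreted mucus protease, took 1.67%, 2.57% and 1.29% of all counts against 0.379%, 0.266% and 0.512%. Fcgbp, a large mucus protein, had 8554, 10462 and 6217 CPM against 2754, 2107 and 2919 CPM. Muc2, the gel-forming mucin of the colon, was lower, with 6339.7, 5176 and 4901 CPM against 16260.4, 9133 and 11297 CPM. Its side difference was -1.28 (residual SD 0.23). Spdef, the goblet cell transcription factor, had 71.6, 97.7 and 76.8 CPM against 135, 118 and 119 CPM, a difference of under 2-fold. Enzymes that build mucin sugars were likewise split, with 4 of 28 higher and 5 lower. St3gal6, a sialyltransferase, had 281, 368 and 248 CPM against 36.9, 67.2 and 103 CPM. Fut4, a fucosyltransferase, had 144, 149 and 132 CPM against 55.2, 60.7 and 69.9 CPM. Gcnt3, which branches mucin chains, had 149.9, 104 and 159.5 CPM against 719, 578 and 414 CPM, and B4galnt2, which makes the Sd(a) blood group antigen, 456, 393 and 425 CPM against 1609, 1321 and 796 CPM.

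Antimicrobial and host defence genes were higher for 10 and lower for 3 of 26 members, with a median of 0.44 but a mean of -0.16. Ang4, an antimicrobial ribonuclease, had 1319, 6003 and 1215 CPM against 511, 92.6 and 587 CPM. Gsdmc4, a gasdermin, had 1318, 4047 and 1127 CPM against 389, 309.8 and 437 CPM. Il18, an epithelial cytokine, had 75.5, 85.2 and 69.8 CPM against 25.1, 22.4 and 29.3 CPM, at the lowest spread of these genes (residual SD 0.19). The members lower in the high-Hoxb13 libraries were Reg3b, Reg3g and Saa3. Saa3 had 10, 17 and 22 counts against 602, 572 and 257, while its relative Saa1 was higher, with 1544, 1135 and 1482 CPM against 1041, 473 and 448 CPM. Retnlb, a goblet cell resistin-like protein, had overlapping sides, with 355, 2342 and 185 CPM against 949, 138 and 478 CPM. NSD2fl/fl replicate 3 was the highest library for Ang4, Gsdmc4, Retnlb and Reg4.

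Of 24 tested enteroendocrine genes 2 were higher and 7 lower in the high-Hoxb13 libraries (median -0.27). Insl5, a hormone of L cells of the distal colon, had 144, 172 and 145 CPM against 9.64, 19.4 and 37 CPM. Pyy, also made by L cells, had 65.3, 81 and 66.8 CPM against 47.1, 37.4 and 31.1 CPM, a side difference of 0.80. Gcg, which encodes GLP-1 in the same cells, had 53.3, 48.4 and 56.8 CPM against 62.3, 68.4 and 59.5 CPM, a side difference of -0.23 and opposite in sign to Insl5 and Pyy. Sct, the secretin gene, ran opposite to Insl5, with 2.03, 1.68 and 2.07 CPM against 31.3, 19.5 and 11.6 CPM. Tph1, the enzyme for serotonin synthesis in enterochromaffin cells, had 18.2, 13.6 and 22.6 CPM against 70.7, 52.3 and 27.4 CPM. Chgb, of the secretory granule, had 116, 92.5 and 148 CPM against 372, 299 and 184 CPM.

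**Figure D4:**
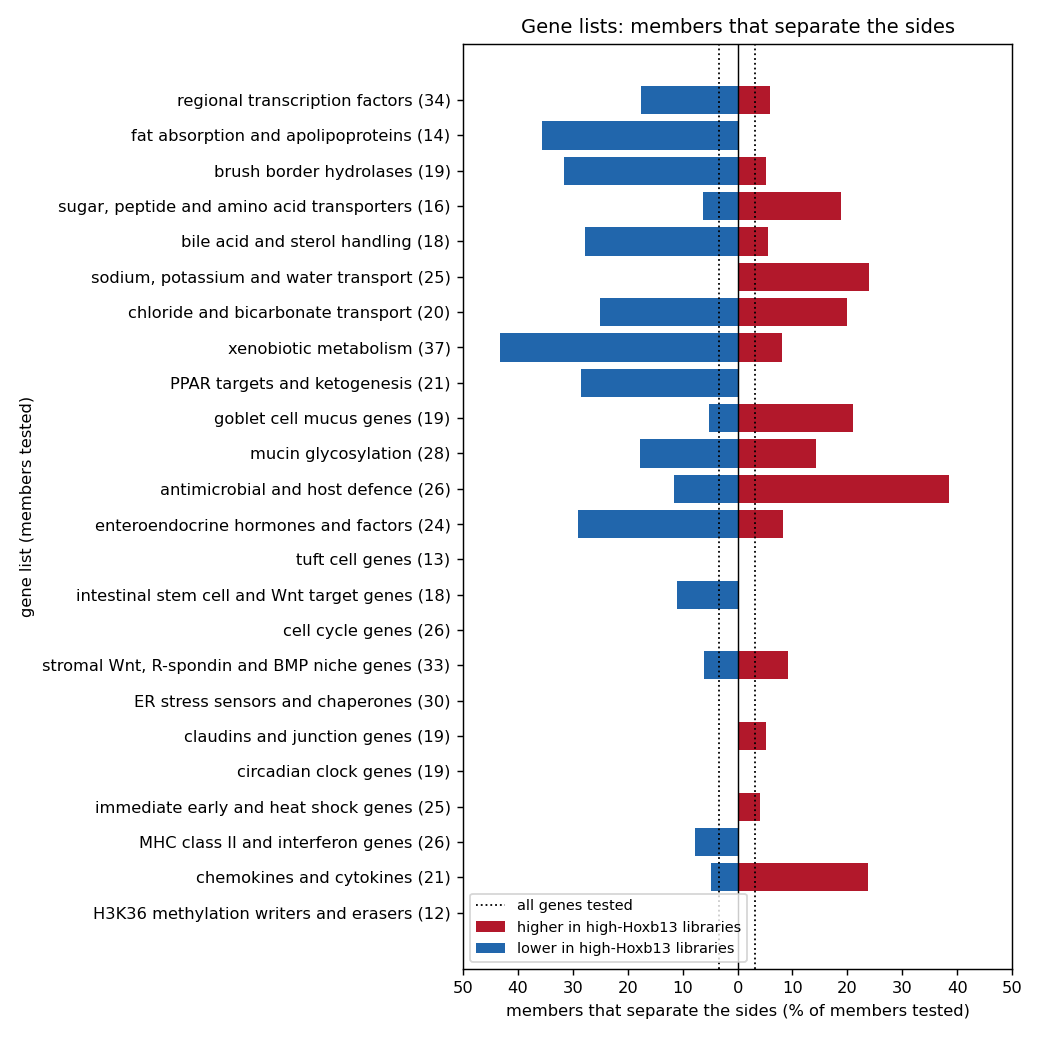
Share of the tested members of 24 gene lists that separated the sides, in percent, with red bars to the right for genes higher and blue bars to the left for genes lower in the high-Hoxb13 libraries. Numbers in brackets are members tested, and dotted lines are the shares over all genes tested, 3.12% and 3.37%. Xenobiotic metabolism has the longest bar to the left (16 of 37) and antimicrobial genes the longest to the right (10 of 26), while 5 lists have no bar.

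Lymphocyte markers also differed between the sides. Of 14 tested markers of B and plasma cells 10 were higher in the high-Hoxb13 libraries and none lower, with a median of 1.99. Their mean log2 CPM was 3.87, 4.29 and 3.69 on the high side and 1.37, 2.15 and 2.31 on the low side. Cr2, a complement receptor of mature B and follicular dendritic cells, had 308, 365 and 220 counts against 6, 51 and 46. Jchain, made by antibody-secreting cells, differed less, with 1557, 2277 and 1428 CPM against 1235, 1015 and 1107 CPM. The chemokines Cxcl13, Ccl20 and Ccl19, which are known from lymphoid follicles, were higher as well, with side differences of 1.09, 1.48 and 2.04. T cell markers leaned the other way, with 5 of 13 lower and none higher (median -0.77). Gzma, a granzyme of cytotoxic lymphocytes, had 2, 1.91 and 1.31 CPM against 16.5, 13 and 9.5 CPM, with a side difference of -3.03 in NSD2∆IE and -3.04 in NSD2fl/fl. Cd8a had 3.35, 1.71 and 2.72 CPM against 10.9, 11.3 and 9.38 CPM. Cd4 was nearly level, at 14.5, 12 and 13.2 CPM against 12, 11.5 and 10.3 CPM. Ccl5, a chemokine of cytotoxic lymphocytes, was lower by 2.02 on the log2 scale, and the interferon-induced genes Ifit1 and Irf7 by 1.89 and 1.62. Ifit1 and Irf7 were the separating members of 26 MHC class II and interferon genes (7.69%, near the 6.49% of all genes). Of these 26 genes, 22 overlapped between the sides.

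Markers of muscle, nerve and fat varied within the low-Hoxb13 side. No smooth muscle marker of 12 separated the sides. Their mean log2 CPM was 7.66, 7.69 and 7.98 on the high side and 6.48, 8.49 and 9.05 on the low side, so that NSD2fl/fl replicate 2 was lowest and NSD2∆IE replicate 3 highest, both with low Hoxb13. By this mean, the enteric neuron, glia and adipocyte lists had the same lowest library. By summed CPM, NSD2fl/fl replicate 2 was instead the highest library for glia, at 693, and NSD2fl/fl replicate 3 the lowest for adipocytes, at 139. Among 5 tested markers of interstitial cells, Thbs4, an extracellular matrix protein, had 491, 394 and 431 CPM against 42.9, 36.1 and 85 CPM, and Ano1, a chloride channel also found in epithelium, 271, 211 and 237 CPM against 58, 75.4 and 102 CPM. The defining marker Kit had overlapping sides, with 116, 72.3 and 98 CPM against 111, 116 and 116 CPM. The adipocyte list held 1 separating gene of 10, Cidec, a lipid droplet protein that was lower, with 26, 90 and 129 counts against 658, 731 and 603. Adipoq, the defining adipocyte hormone, had 0.364, 2.19 and 2.57 CPM against 0, 3.78 and 10.3 CPM. Of 14 pancreas and liver markers 4 were tested and Ttr and Cela1 were higher on the high side, Cela1 with 341, 255 and 281 CPM against 50.6, 58.9 and 81.6 CPM. The pancreatic markers Cela2a, Prss2 and Pnlip did not pass the low-count filter. Of 14 markers of squamous epithelium, the lining of the anal canal, 3 passed it, and the keratins Krt5 and Krt13 did not. Ly6d, a surface protein, was higher, with 14.4, 19.3 and 12.7 CPM against 7.21, 6.51 and 6.41 CPM. The keratin Krt10 was higher without overlap by 0.21 on the log2 scale, and Krt14 had 21, 18 and 20 counts against 33, 7 and 17, so that the sides overlapped. The mean log2 CPM of the 3 markers was 1.51, 1.70 and 1.41 on the high side and 1.37, 0.66 and 0.90 on the low side. In the list of neutrophil and mast cell markers Ly6g had 115, 186 and 112 CPM against 32.4, 0.833 and 6.6 CPM, while S100a8 and S100a9, the defining neutrophil genes, did not pass the filter. The part of these cells in the results above was not tested.

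**Figure D5:**
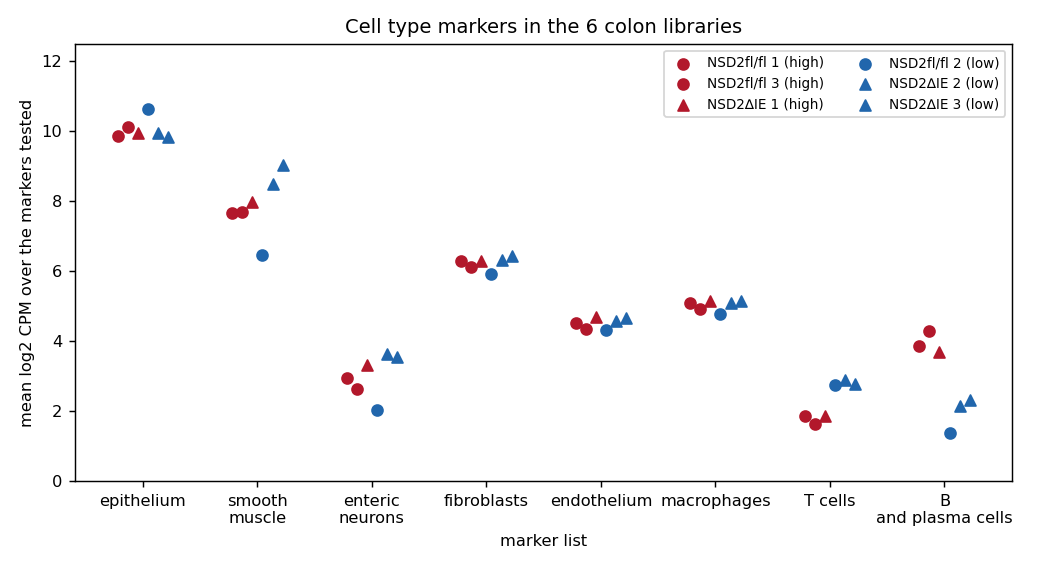
Mean log2 CPM over the tested markers of 8 cell types in the 6 libraries, red for high and blue for low Hoxb13, circles for NSD2fl/fl and triangles for NSD2∆IE. Markers of B and plasma cells lie higher and T cell markers lower in the 3 high-Hoxb13 libraries, whereas smooth muscle markers run from 6.48 to 9.05 within the low-Hoxb13 side.

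Several lists had no separating member. None of 26 cell cycle genes, 30 genes of endoplasmic reticulum (ER) stress, 19 circadian clock genes, 13 tuft cell genes or 12 writers and erasers of H3K36 methylation separated the sides, and their medians were -0.55, 0.09, 0.02, -0.11 and 0.08. Over all genes tested 6.49% separated the sides, so lists this short can hold no separating member at that share. Of the 30 ER genes 4 were higher without overlap at a smaller size, near the 12.8% of all genes. Ern1, a sensor of ER stress that the study followed, had 74.2, 60.9 and 56.3 CPM in the high-Hoxb13 libraries and 55.3, 38.4 and 42.6 CPM in the low-Hoxb13 libraries, a side difference of 0.38, and Ern2, its epithelial form, 114, 101 and 102 CPM against 76.9, 70.1 and 92 CPM. Mki67, a proliferation marker, had 114, 226 and 85.3 CPM against 172, 140.0 and 162 CPM, and the stem cell gene Lgr5 11.6, 6.29 and 10.4 CPM against 10.4, 15.7 and 12.6 CPM. Of 18 tested stem cell and Wnt target genes, only Cd44 and Tnfrsf19 separated the sides, both lower (11.1%, beside 6.49% of all genes). Without the size criterion the list leaned the other way, with 7 members higher and 3 lower without overlap. Over all genes these shares were 12.8% and 9.5%. The median side difference of the list was 0.28. Cldn8 was the only separating gene of 19 claudin and junction genes (5.26%, near the 6.49% of all genes). It had 45.5, 70.4 and 30.8 CPM against 26.3, 12.7 and 13 CPM. Of 33 genes of the stromal Wnt and BMP niche 3 were higher and 2 lower (15.2%, beside 6.49% of all genes), with a median of 0.04. Among the higher was Sfrp2, a secreted Wnt inhibitor with 150, 140 and 124 counts against 11, 38 and 61. Its side difference was 2.40, and 1.36 without NSD2fl/fl replicate 2.

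The libraries of a side were not equal. Of the 509 higher genes, NSD2∆IE replicate 3 was the low-Hoxb13 library closest to the high side for 323 (63.5%), and of the 550 lower genes for 370 (67.3%). On a scale that sets the mean of the low side to 0 and of the high side to 1, its median position was 0.174 and 0.164 for these gene sets. NSD2fl/fl replicate 2 lay at -0.143 and -0.116. On the high side NSD2∆IE replicate 1 was closest to the low side for 41.7% and 56.4% of the genes, at median positions of 0.945 and 0.839. These positions describe the genes chosen for separating the same libraries and are no test.

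The split also bears on the genotype comparison, because 2 of 3 NSD2fl/fl libraries but 1 of 3 NSD2∆IE libraries had high Hoxb13. Nsd2, the deleted gene, had 1840, 2455 and 972 counts in the high-Hoxb13 libraries, the last of them NSD2∆IE, against 2091, 914 and 1139, the first of them NSD2fl/fl, and its side difference was -0.04. With side as a covariate in edgeR's quasi-likelihood test, the log2 fold change of Nsd2 (NSD2∆IE against NSD2fl/fl) was -1.24 (SE 0.172), with a Benjamini-Hochberg adjusted p of 0.28 over 16347 genes and lower values in 3 of 3 NSD2∆IE libraries. The call turned on the tool and the filter, since the adjusted p of Nsd2 was 0.0463 in edgeR with no filter on low counts and 3.14e-06 in DESeq2. The common dispersion was 0.0431 with side in the model and 0.0967 with genotype alone, a biological coefficient of variation of 0.208 against 0.311. Past an adjusted p of 0.05 were 5 genes (0.0306%), namely Xist and the Y-chromosomal Ddx3y, Eif2s3y, Kdm5d and Uty, with and without side in the model. DESeq2 called 565 genes with side in the model, edgeR 10 with no filter and 87 without NSD2∆IE replicate 1. At the study's own threshold, which combines an unadjusted p with a minimum fold change, 543 genes were lower and 1468 higher in NSD2∆IE with side in the model, against 361 and 1316 with genotype alone. Scaled by library totals instead of TMM factors, the split with side in the model was 220 lower and 1890 higher. Ern1 had a log2 fold change of -0.36 (SE 0.128) with side in the model, and its adjusted p in edgeR was 0.331. Before adjustment its edgeR p was 0.0273, so Ern1 met the study's threshold in that model. It also did so with genotype alone, at -0.47 (edgeR p before adjustment 0.0372). Under scaling by library totals, with side in the model, Ern1 missed that threshold, at -0.22 (edgeR p before adjustment 0.1735). Leaving out single libraries gave fold changes of Ern1 between -0.26 and -0.43. Among the 1059 separating genes, 85 (8.03%) had an unadjusted p under 0.05 for genotype with side in the model and 13 (1.23%) without it, beside 13% and 11.1% of all genes. These 1059 genes were chosen for a large side difference, which adds to their residual spread when side is left out. Their low share without side thus follows at least partly from that choice. Side was set from a gene of the same libraries, so this covariate is no independent measurement.

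Whether the side difference depended on genotype was tested as an interaction in edgeR, with 2 residual degrees of freedom. No gene of 16347 passed an adjusted p of 0.05 (0%), the smallest adjusted p was 0.489, and 1069 genes had an unadjusted p under 0.05. DESeq2 called 132 genes in the same design, and edgeR called 18 without NSD2∆IE replicate 2 and 4 without NSD2∆IE replicate 3. Among the leading genes, Slc51a had an interaction estimate of 9.21 (SE 2.17) with an adjusted p of 0.526 in edgeR, resting on 0 counts in both NSD2fl/fl high-Hoxb13 libraries. Fabp6 had an estimate of -4.58 (SE 1.07) with an adjusted p of 0.522 in edgeR, and Acta2, a smooth muscle actin, of -2.17 (SE 0.428) with an adjusted p of 0.503.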

How the data were processed

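Total RNA of mouse colon was sequenced in 6 libraries, 3 NSD2fl/fl and 3 NSD2∆IE. Per the labels, the submitters' processing notes name fastp, HISAT2, HTSeq, R 3.2.0 and mm10, with no role given. The annotation and the use of strand are not given in the sources used here. The authors deposited unnormalized read counts for each gene and an FPKM value (reads per gene length and library total) for each library. The deposited FPKM follow from the same counts: the gene length implied by both was shared by all libraries to within 0.0783 bases for 17863 genes. All 24517 genes were read, and no row held unassigned reads.

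Genes were filtered with filterByExpr of edgeR 4.0.16 (R 4.3.3), which kept 16347 genes, 16312 without Hox genes. CPM were scaled by TMM factors, and log2 CPM used a prior count of 2. Groups and replicate numbers came from the labels, and sides from the Hoxb13 count. The members and gene lists were chosen with earlier results of these data known. The side difference is the side coefficient of a linear model of log2 CPM on genotype and side, and was not tested. Its residual SD has 3 degrees of freedom. Genotype with side, and their interaction, were tested by the quasi-likelihood test (two-sided, Benjamini-Hochberg adjustment over all genes). The p-values measure only the spread between these libraries. The 20 leading genes are, in each direction, the 10 separating genes with the largest smaller within-genotype difference and an average log2 CPM of at least 1. Others were named by role from 40 lists (39 beside the Hox markers), or, for Tnip3 and Eno3, by the promoter rule. The motifs and the examples within lists were chosen with values in view. No pair of libraries was alike within sampling noise (chi-square per degree of freedom at least 35.5 over genes with 20 counts in a pair). Scripts were tested on simulated data. Alternatives were other scalings, no filter, FPKM with pseudocounts of 1 and 0.1, side without genotype, a 4-fold criterion, DESeq2 1.42.0, replicate blocks and leaving out each library. Some genes of the lists are not reported here by name.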

Additional observations from a re-analysis of the deposited data

Results flagged for a closer look

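For 9 of 40 gene lists, the mean log2 CPM differed between high- and low-Hoxb13 libraries in opposite directions in the 2 genotypes, with every library of a genotype following its direction. The difference between genotypes was not tested for these means. High minus low, the smooth muscle list differed by 1.2 in NSD2fl/fl and -0.791 in NSD2∆IE, the adipocyte list by 1.13 and -0.908, the enteric neuron list by 0.772 and -0.274, the enteric glia list by 0.257 and -0.636 and the fibroblast list by 0.298 and -0.0912. The epithelium list ran the other way, with -0.622 in NSD2fl/fl and 0.0589 in NSD2∆IE, as did claudins and junction genes, with -0.19 and 0.0929, and mucin glycosylation, with -0.132 and 0.0898. Tuft cell genes had 0.0911 and -0.311. NSD2fl/fl has 1 low-Hoxb13 library and NSD2∆IE 1 high-Hoxb13 library, so each of these differences rests on a single library on 1 side.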

How the results depend on the processing

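The count of 1059 separating genes stayed within 1.5 times under RLE, upper-quartile or total scaling, no filter, log2(FPKM + 0.1) and side alone. It was 478 with log2(FPKM + 1), 230 higher and 248 lower, and 413 with a 4-fold criterion, 223 higher and 190 lower. Leaving out each library gave 1083 to 1379 genes, 485 to 663 higher and 582 to 742 lower. The share of the original 1059 genes retained was lowest without NSD2fl/fl replicate 2, at 74.5%. No gene of the 1059 changed direction under any of these alternatives. For side alone, the 4-fold criterion and the runs without 1 library this was fixed beforehand. Each separating gene has all high-Hoxb13 libraries on one side of all low-Hoxb13 libraries. Of 40 named genes, 12 moved by more than their residual SD without NSD2fl/fl replicate 2 and 12 without NSD2∆IE replicate 1, and 21 with log2(FPKM + 1). The genotype test with side called 10 genes with no filter, then including Nsd2 at an adjusted p of 0.0463 in edgeR, 565 with DESeq2, where the adjusted p of Nsd2 was 3.14e-06, and 5 to 87 without 1 library each, with 87 when NSD2∆IE replicate 1 was left out. The cause was not tested. The adjusted p of Nsd2 in edgeR otherwise ranged from 0.082 to 1.00. Deviations from the genotype means correlated at 0.501, 0.643 and -0.166 between libraries with the same replicate number. Both libraries numbered 1 had high Hoxb13, both numbered 2 had low Hoxb13, and those numbered 3 lay on opposite sides. These correlations therefore cannot tell a pairing by number from the side. The replicate block added to genotype and side gave 8 calls, and in place of side 5. The interaction test called 132 genes with DESeq2, 0 to 18 without 1 library each, with 4 without NSD2∆IE replicate 3 and 18 without NSD2∆IE replicate 2. It could not be fitted without NSD2fl/fl replicate 2 or NSD2∆IE replicate 1. Depth was similar in all libraries and limits only genes near 3 counts.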
